A study of Potamopyrgus antipodarum with 6 samples.

Results

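Long stretches of the snail transcriptome reference that gave few MeDIP counts along their whole length were described in the New Zealand mud snail, Potamopyrgus antipodarum. A stretch here is a run of 100 bp windows parted from the next run by 8 or more windows with no count in any sample. A sparse long stretch has 5 or more windows, and the counts of all 6 samples together, called T, are 30 or less in each of them. There were 5213 such stretches among 43878 covered stretches (11.9%) and among 23376 stretches of 5 or more windows (22.3%). They were chosen by T, so their low counts are a description and not a result, whereas the split of the counts between sites was not used to choose them. T does weigh the deeper lake samples more than the river samples.

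The samples were pools of foot tissue DNA. River pools 10, 11 and 12 came from the Snake River at Ritter Island, in a side channel, and lake pools 1, 2 and 3 from Lake Lytle, with 10 snails per pool according to the labels. Before they were dissected, all snails spent several days in water held at 14 °C. Each pool mixes individuals and each habitat is represented by a single site, so differences between the sites cannot be told apart from differences between habitats. The study asked whether asexual snails that live in still and in flowing water differ in DNA methylation, and a count in a window, from antibody precipitation of methylated cytosine followed by sequencing (MeDIP-Seq), measures how much DNA of that window was pulled down and mapped.

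In molluscs, DNA methylation occurs mainly at CpG sites and is distributed in a mosaic. It is found largely in the bodies of a subset of genes, often genes with broad and steady expression, while much of the remaining genome carries little. A MeDIP library recovers heavily methylated, CpG-rich fragments many times over and recovers other DNA rarely. A low count is thus not a methylation level, since methylation, CpG number and the mapping of reads all enter it. The reference was made from transcripts, so each stretch is transcribed sequence, and genomic reads that cross an exon border may not align to it.

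Total counts ran from 2212650 to 4175301 in the river pools and from 4040377 to 5013750 in the lake pools. The counts were 1.50 times the number of reads, because a read that lies across a window border was counted in both windows. No window of the table exceeded 300 counts in a pool. The counts of lake pools 2 and 3 differed by less than sampling noise (chi-square of 0.805 per window over 111368 windows, where a value of 1 is noise alone), so both together entered each mean as 1 sample. River pool 12 stood apart, with a chi-square per window of 2.28 and 3.57 to river pools 10 and 11 and of 1.15 to 1.71 to the lake pools. The main results on the members are therefore also given without it.

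Most sparse long stretches were near the minimum length. Their length ran from 500 to 3100 bp with a median of 600 bp, and 2279 of them (43.7%) had 5 windows, while 377 had 10 or more and 6 had 20 or more. The median of T per window was 6.62 (quartiles 3.80 and 10.2), against 59.2 in the other long stretches, which also had a median length of 600 bp. They took up 15.0% of the windows of all stretches and held 1.06% of the counts. In 4061 of them (77.9%) no window was empty, and the most empty windows in a single stretch was 8. Summed over windows and pools, a stretch held 2 to 223 counts with a median of 41.

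The threshold separated stretches that were alike on its 2 sides. The 147 members whose fullest window reached T of 30 had a median of 91 summed counts, and the 159 long stretches whose fullest window reached 31 also had a median of 91. The 2279 members of 5 windows had a median of 35 summed counts. The 2763 stretches of 4 windows under the same ceiling had a median of 25.

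The longest members were 2 stretches of 3100 bp, at 5801 to 8900 and at 309201 to 312300 on the joined sequence of all contigs, counted from 1. The stretch at 5801 had 38, 5 and 32 counts in river pools 10, 11 and 12 and 33, 18 and 41 in lake pools 1, 2 and 3, spread over 31 windows of which 8 were empty. The stretch at 309201 had 26, 14 and 28 counts in the river pools and 23, 22 and 32 in the lake pools. The number of counts overlapped between the sites in both. The next longest, at 726901 to 729300 (24 windows), had 18, 11 and 45 counts in the river pools and 19, 24 and 11 in the lake pools, and the one at 522301 to 524500 (22 windows) had 14, 4 and 22 in the river pools and 14, 22 and 27 in the lake pools. Scaled to the depth of the pools (counts per 1 M counts, CPM), every river pool lay above every lake pool in the stretches at 309201 and 726901. None of these 4 passed the river over lake test described below, with edgeR adjusted p-values of 0.612, 0.308, 0.130 and 0.977.

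Among members of 8 or more windows, the highest mean T was found at 14372601 to 14373500, with 19.0 counts per window. Its 9 windows together had 21, 5 and 24 counts in the river pools and 31, 28 and 62 in the lake pools. The stretches at 8713601 (18.6 per window) and 14378101 (18.25 per window) followed. At the other end, the stretch at 56651201 to 56652100 had 2 counts in all, both in lake pool 3, and those at 24153601 and 69683601 had 2 and 3 counts, all in river pools. Counts this low were not tested.

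Each pool gave about the same small share of its counts to these stretches, apart from river pool 11. The share was 1.08%, 0.765% and 1.17% in river pools 10, 11 and 12 and 1.00%, 1.04% and 1.14% in lake pools 1, 2 and 3. This was 1.00% ± 0.212 in the river (SD, n = 3) and 1.05% ± 0.0606 in the lake (SD, n = 2). The difference of -0.0577 percentage points over the 6 pools, river minus lake, was smaller than the spread between river pools (two-sided exact permutation p of 0.9, where 0.1 is the smallest that 3 against 3 pools allow). Without river pool 11 the difference was 0.0618 percentage points, of the opposite sign (exact permutation p of 0.4). River pool 11 was also the shallowest pool. Thinning all pools to its total keeps its share at 0.765% by construction and leaves the expected share of the others unchanged. The thinned shares were 1.08% and 1.16% in the other river pools and 1.00% to 1.15% in the lake pools. Thinning thus cannot show whether depth enters the low share of river pool 11, which was not tested.

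**Figure D1:**
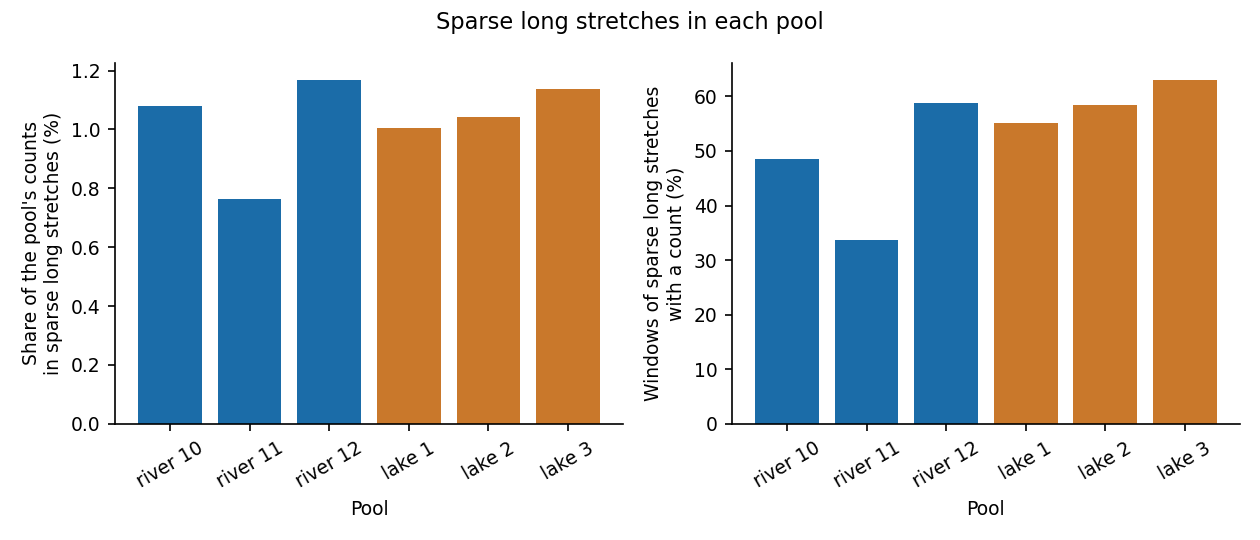
Left, share of each pool's counts that fell in the 5213 sparse long stretches, in percent. Right, percent of the windows of these stretches that had at least 1 count. River pools are blue and lake pools orange. River pool 11 is lowest in both, at 0.765% and 33.6%.

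Detection broadly followed depth. River pools 10, 11 and 12 had a count in 48.5%, 33.6% and 58.8% of the members' windows, and lake pools 1, 2 and 3 in 55.1%, 58.5% and 63.0%. In the other long stretches the lowest pool reached 76.4% and the highest 92.4%. Whole members without a count numbered 585, 1245 and 306 in the river pools and 406, 370 and 287 in the lake pools. The windows with a count averaged 47.0% ± 12.7 in the river (SD, n = 3) and 57.9% ± 3.99 in the lake (SD, n = 2), a difference within the spread of the river pools (exact permutation p of 0.3 over the 6 pools). A member with no count in a pool was not shown to be absent there, since a count of 0 allows up to 3 counts.

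The counts of a pool followed those of the next window closely and those of farther windows little. Across 28013 pairs of neighbouring windows within members, the correlation within a pool was 0.454 to 0.535, and at a distance of 2 windows it was 0.0960 to 0.246 over 22800 pairs. Neighbouring windows share the reads that lie across their border, and windows 2 apart do not share such reads. Between pools the mean correlation was 0.425 in the same window and 0.218 in neighbouring windows. These correlations are across windows, which are not independent, and are given as a description. Along a stretch, with its mean removed, the summed river counts and the summed lake counts had a correlation of 0.627 over the 33226 windows of the members and of 0.969 over the 130322 windows of the other long stretches. The outlines of sparse stretches were less alike in the 2 sites, at far lower counts.

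Correlations between pools over the sparse long stretches are given with those over other stretches of similar counts, since few counts alone lower them. The Spearman correlation of scaled counts over the 4875 members tested was 0.354 to 0.470 for the 3 river pairs, 0.327 to 0.528 for the 9 river-lake pairs and 0.587 to 0.640 for the 3 lake pairs. Over the 4968 other long stretches within the members' range of summed counts it was 0.269 to 0.400 for river pairs, 0.0990 to 0.424 for river-lake pairs and 0.575 to 0.694 for lake pairs. Over the 10765 short stretches in that range it was 0.622 to 0.693 for river pairs, 0.572 to 0.769 for river-lake pairs and 0.796 to 0.832 for lake pairs. The members thus lay below the short stretches, whose median summed count was close to theirs (43, against 44 in the members). They mostly overlapped the other long stretches, whose median was 146. The spread of summed counts within the range, which also enters a rank correlation, was not matched. The matched ranges were chosen after seeing the data. River pools 10 and 11 were each closer to river pool 12 than to any lake pool (0.352 to 0.388 and 0.327 to 0.366). Both had fewer counts than every other pool, and the part of depth in these values was not tested. River pool 12 was closer to each lake pool (0.501 to 0.528) than to river pools 10 (0.470) and 11 (0.391). In windows of members with more than 10 counts in the pair, which are few, its chi-square per window was 1.17 with river pool 10 (533 windows) and 1.41 with river pool 11 (255 windows), against 1.29, 1.61 and 1.49 with lake pools 1, 2 and 3 (874 to 1720 windows). The lowest value was the one with river pool 10. The 2 measures placed river pool 12 differently, and neither is a test.

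The spread between pools of a site, as the biological coefficient of variation of edgeR, was 46.1% in the river and 31.1% in the lake over the 4875 members. Over the other long stretches it was 28.0% in the river and 10.7% in the lake. Border reads enter a stretch sum in 2 windows. With every second window only, an alternative chosen after seeing the data, the spread over members was 26.7% in the river and 15.8% in the lake. Other long stretches with summed counts in the same range (10 to 116 in those windows) had 26.7% in the river and 10.9% in the lake, and short stretches of 1 to 4 windows had 25.9% in the river and 4.50% in the lake. In the river the spread over members was close to that of other stretches in this range, and in the lake it was larger, although the members' median count was lower (24, against 73 in the other long and 31 in the short stretches).

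The comparison of river with lake asks which of these stretches differ in precipitated DNA between the sites. Counts were summed per stretch and tested with the edgeR quasi-likelihood test over all 37710 stretches with at least 10 summed counts, with Benjamini-Hochberg adjustment over all of them. Of the 5213 members, 4875 (93.5%) reached 10 counts and 338 did not. None of the 4875 passed an adjusted p of 0.05, where the share called over all stretches was 0.00796% (3 stretches), and none passed with lake pools 2 and 3 merged. At an unadjusted p under 0.05 there were 297 members higher in river (6.09%, against 12.6% of all stretches tested) and 180 higher in lake (3.69%, against 11.6%), where 24.2% of all stretches tested reached that p in either direction. Among stretches within the members' range of summed counts, 5.90% of the short and 5.68% of the other long stretches were higher in river. In that range 6.38% of the short and 11.3% of the other long stretches were higher in lake. Counts were not matched within the range (median 44 in members, 43 in the short and 146 in the other long stretches). The part of summed counts in these shares was not tested. Which direction had more members turned with the setting. Library size alone gave 165 members higher in river (3.38%, against 8.44% of all stretches tested) and 232 higher in lake (4.76%, against 15.3%). Leaving out river pool 12 gave 252 higher in river (5.39%, against 17.8%) and 317 higher in lake (6.79%, against 22%). The edgeR exact test called 162 members (3.32%, against 10.8% of all stretches tested), 96 higher in river and 66 higher in lake. The DESeq2 Wald test called 2 (0.0410%, against 8.24%), both higher in river. It gave no adjusted p to some members, among them stretches A to J described below, and these count here as not called. Its low number is thus not a lack of difference.

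Leaving out river pool 12 changed this outcome. The quasi-likelihood test then called 217 of 4672 members (4.64%, against 29.6% of all stretches tested), of which 103 were higher in river and 114 higher in lake. Without river pool 11 it called 6 members (0.124%, against 0.0695% of all stretches tested), all higher in river, and without river pool 10 or any 1 of the lake pools it called none. Without a filter on low counts it called 73 members (1.40%, against 6.59%). The median standard error of the log2 fold change was 0.66 over members and 0.36 over all stretches tested, and the smallest log2 fold change that reached an unadjusted p of 0.05 was 0.81 over members and 0.35 over all stretches.

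River over lake, the members tested had a median log2 fold change of 0.12, against -0.05 for all stretches tested, and 56.3% of the members had a positive value. With library size alone the median over members was -0.037, so that its sign depends on the scaling, and without river pool 12 it was 0.07. No test was made over the members. The CPM of the river pools all exceeded those of the lake pools in 441 members (9.05%, against 11.4% of all stretches) and all fell short of them in 346 members (7.10%, against 15.7%). With library size alone the order of these shares was reversed, at 6.28% higher in river and 9.01% higher in lake. Without river pool 12, which makes a lack of overlap easier to reach, there were 761 members higher in river (15.6%, against 24.7% of all stretches) and 753 higher in lake (15.4%, against 30.9%). Within the members' range of summed counts, 8.38% of the short and 6.92% of the other long stretches had every river pool above the lake pools, both below the 9.05% of the members. Those with every river pool below the lake pools were 11.4% of the short and 17.1% of the other long stretches, both above the 7.10% of the members. On the main scaling the shares of members were thus below those of all stretches in both directions. Within the same range of summed counts they were below in the lake direction alone. Split by summed count, members at 61 to 100 counts were lower in the river direction too (8.18%, against 9.65% of other stretches). In each other count range they were higher in that direction. No such background was made with library size alone.

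The median fold change of members fell with their summed count. It was 0.31 for the 821 members with 10 to 20 counts, 0.14 (21 to 40 counts), 0.15 (41 to 60), 0.05 (61 to 100) and -0.12 for the 240 members with 101 to 223 counts. Stretches outside the group with the same summed counts had medians of 0.03, -0.02, -0.08, -0.07 and -0.20, each lower than that of the members of the same range. By length, the median was 0.07 for members of 5 windows, 0.11 for 6 windows, 0.16 for 7 to 8 windows, 0.25 for 9 to 12 windows and 0.32 for the 97 members of 13 or more windows. Members with at least 1 empty window had a median of 0.29 (909 stretches), and those with none had 0.09 (3966 stretches). The median was thus higher in longer members and in those with few counts or empty windows. The need for 10 counts in all lets a low member pass through the pools where it is high. The ceiling on T, which weighs the deeper lake pools more, also sets which stretches are members and which are outside the group. With members chosen on scaled counts the median over all members was 0.09, against 0.12. The part of both rules in these medians was not tested.

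**Figure D2:**
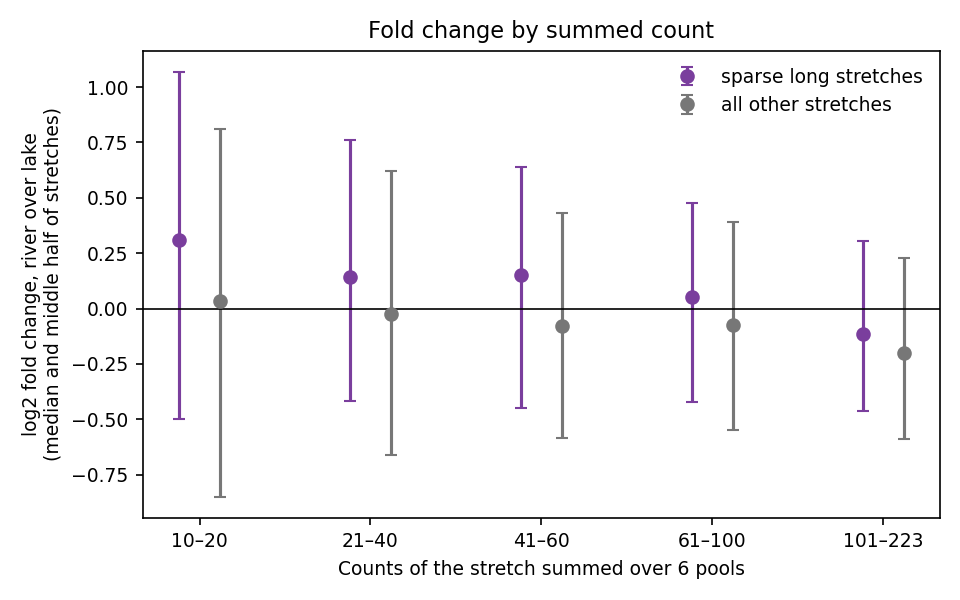
Median (points) of the log2 fold change, river over lake, and the range of the middle 50% of stretches (bars) by the counts of the stretch summed over the 6 pools, for sparse long stretches (purple) and all other stretches tested (grey). The medians of sparse long stretches run from 0.31 at 10 to 20 counts to -0.12 at 101 to 223 counts and lie above the grey ones in each range, on the scale of the main normalisation.

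A to D are the 4 members of lowest p whose river pools all lay above the lake pools. Stretch A lay at 6925101 to 6925600 (500 bp). It had 9, 6 and 34 counts in river pools 10, 11 and 12 and no count in any lake pool. Every river pool thus had counts and no lake pool did. In CPM this was 4.85 ± 2.52 in the river (SD, n = 3). A floor of 3 counts for the lake pools together made this 26.8-fold higher in river. Without river pool 12, which held 34 of the 49 counts, it was 16.4-fold higher. The floor takes the river counts as exact. The exact counting interval does not, and its lower limit with all pools was 21.0-fold. The edgeR adjusted p was 0.0559, which misses the threshold, and over 15 alternatives it ran from 4.47e-06 to 0.284, with 7 of them past the threshold (0.000970 without river pool 12).

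Along stretch A the river counts summed over pools were 8, 18, 16, 6 and 1 in its 5 windows. The window at 6925201 held 3, 2 and 13 river counts and no lake count, and the window test gave an edgeR adjusted p of 0.0289. The counts of a single window repeat in part in its neighbour, as described above. The counts formed a single hump within the stretch.

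Stretch B lay at 13778701 to 13779200 (500 bp). It had 17, 6 and 18 counts in the river pools and none in the lake pools, or 4.67 ± 1.72 CPM in the river (SD, n = 3). This was 22.4-fold higher in river with the same floor, and the lower limit of the exact counting interval was 17.4-fold. The edgeR adjusted p was 0.0559, and it was 0.0779 after lake pools 2 and 3 were merged (range over 15 alternatives 3.85e-06 to 0.284). The pools of the river were closer to each other here than in stretch A, and river pool 10 had the highest CPM.

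Stretch C lay at 52084601 to 52085100 (500 bp). It had 24, 6 and 24 counts in the river pools and 2, 0 and 0 in the lake pools. The depth-scaled ratio of summed counts was 44.3 (95% counting interval 11.7 to 375). This interval rests on only 2 lake counts and treats each count as separate. On the log2 scale the difference was 5.16 (SE 0.82, edgeR adjusted p of 0.0562). Merging lake pools 2 and 3 moved the edgeR adjusted p to 0.244, within a range of 2.37e-06 to 0.338 over 15 alternatives. The window with the lowest p of any member, starting at 52084801, lay in this stretch. It had 9, 3 and 6 counts in the river pools and none in the lake pools (edgeR adjusted p of 0.0289).

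Stretch D lay at 22334701 to 22335500 (800 bp). It had 31, 3 and 38 counts in the river pools and 3, 2 and 5 in the lake pools, or 7.45 ± 5.30 CPM in the river (SD, n = 3) and 0.690 ± 0.0345 CPM in the lake (SD, n = 2). River pool 11 was far below the other river pools and still above each lake pool in CPM. The log2 fold change was 3.43 (SE 0.62, edgeR adjusted p of 0.0862), and without river pool 11 the edgeR adjusted p was 0.00254 (range over 16 alternatives 0.000322 to 0.338).

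**Figure D3:**
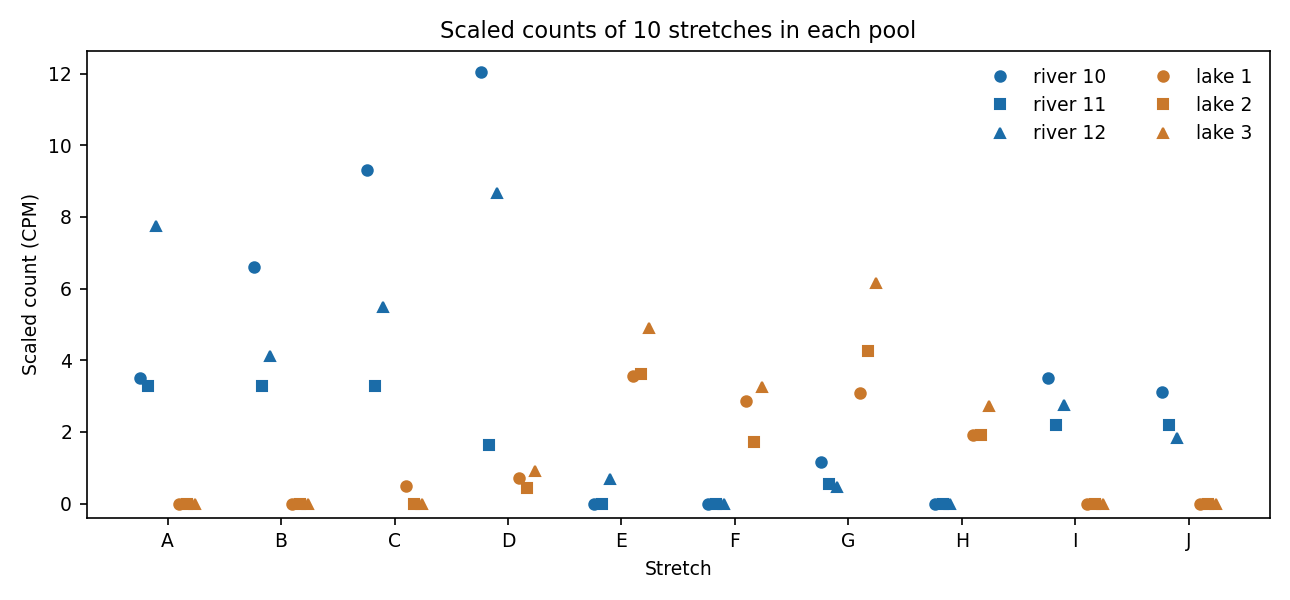
Scaled counts (CPM) of stretches A to J in each pool, with river pools in blue and lake pools in orange. The river pools lie above the lake pools in A to D, I and J, and below them in E to H. All 3 lake pools are at 0 in A, B, I and J, and all 3 river pools are at 0 in F and H.

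E to H are the 4 members of lowest p whose river pools all lay below the lake pools. Stretch E lay at 37779901 to 37780500 (600 bp). It had 0, 0 and 3 counts in the river pools and 15, 17 and 27 in the lake pools, or 0.228 ± 0.395 CPM in the river (SD, n = 3) and 3.91 ± 0.482 CPM in the lake (SD, n = 2). River pool 12 held the only river counts. The log2 fold change was -3.50 (SE 0.75, edgeR adjusted p of 0.0862). The depth-scaled ratio of lake over river was 12.0 (95% counting interval 3.90 to 59.8, from 3 river counts). Its window starting at 37780001 had no river count and 5, 7 and 8 lake counts (edgeR adjusted p of 0.0464).

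Stretch F, at 37798501 to 37799100 (600 bp), lay less than 20 kb from stretch E on the joined sequence, where neighbouring stretches come from different contigs or from parts of 1 contig. It had no count in any river pool and 12, 8 and 18 counts in the lake pools, or 2.67 ± 0.266 CPM in the lake (SD, n = 2). With a floor of 3 counts for the river pools together, the lake was 7.72-fold higher (edgeR adjusted p of 0.0862). It was 3.86-fold higher without river pool 12, where the floor rests on fewer reads. The lower limit of the exact counting interval was 5.98-fold with all pools. The lake counts were spread along the stretch, with 2, 4, 6, 10, 9 and 7 in its 6 windows summed over the lake pools.

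Stretch G, at 60219401 to 60219900 (500 bp), had 3, 1 and 2 counts in the river pools and 13, 20 and 34 in the lake pools, with a log2 fold change of -2.66 (SE 0.60, edgeR adjusted p of 0.0862). Stretch H, at 67122701 to 67123200 (500 bp), had no river count and 8, 9 and 15 lake counts (edgeR adjusted p of 0.0862). With the same floor the lake was 6.50-fold higher, and 3.25-fold higher without river pool 12. The lower limit of the exact counting interval was 4.99-fold with all pools. In all of E to H every river pool lay below every lake pool in CPM. None passed the threshold in the stretch test. Without river pool 12 all of A to H did, with edgeR adjusted p-values of 0.000152 to 0.0157, where 29.6% of all stretches tested were called. With lake pools 2 and 3 merged none of A to H passed, and the edgeR adjusted p was 0.310 for each of E to H. A to H were chosen by their low p in these same data.

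**Figure D4:**
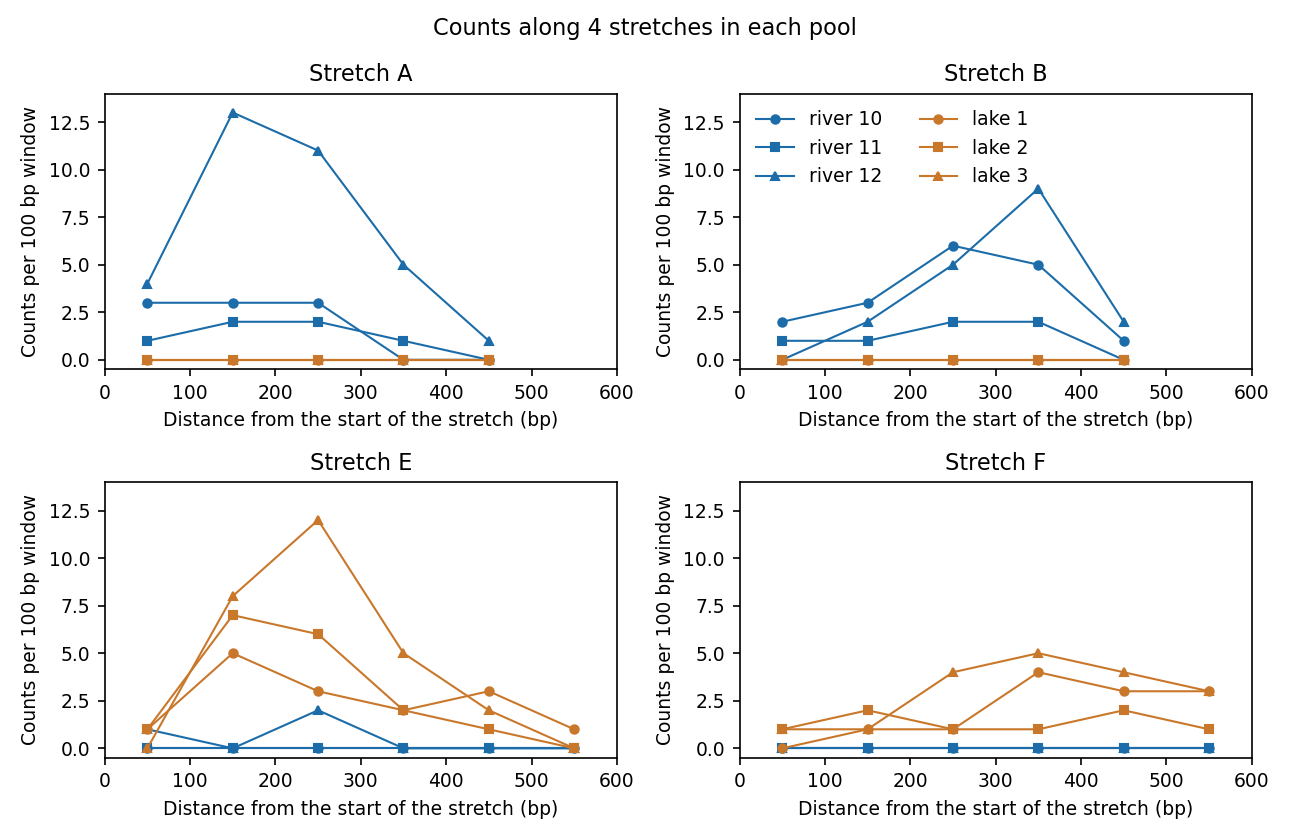
Counts per 100 bp window along stretches A, B, E and F by distance from the start of the stretch, with a line for each pool (river blue, lake orange). The river pools form a hump of up to 13 counts in A and 9 in B while the lake pools stay at 0. In E the river pools reach 2 counts and the lake pools 12, and in F the river pools stay at 0 and the lake pools reach 5.

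Of the members with at least 10 counts, 6 had no count in the lake (0.123%, against 0.0716% of all stretches tested) and 17 had no count in the river (0.349%, against 0.294%). Within the members' range of summed counts these shares were 0.186% and 0.873% of the short stretches and 0% of the other long ones. At 10 to 20 counts they were 0.365% and 1.83% of members, against 0.702% and 3.18% of other stretches. At 21 to 40 counts they were 0.0709% and 0.142%, against 0.0409% and 0.327%. At 41 to 60 counts they were 0.168% and 0%, against 0% for both. All 3 pools of the other site had a count in 5 of the 6 members and in 16 of the 17 members. With fewer counts in the river pools, a stretch reaches 0 in the river more easily than in the lake, so these numbers cannot be set against each other. Besides A and B, the members with no lake count included stretch I at 108901 to 110200 (1300 bp), with 9, 4 and 12 river counts, and stretch J at 15412201 to 15412700 (500 bp), with 8, 4 and 8 river counts. With the floor of 3 counts for the lake pools together they were 13.7-fold and 10.9-fold higher in river. The lower limits of the exact counting intervals were 10.3-fold and 8.10-fold. The edgeR adjusted p was 0.0862 for each. Stretch I was the more drawn out, since its 25 counts were spread over 13 windows, none of which exceeded T of 4.

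With an offset per pool that follows the mean count, 10 members passed an adjusted p of 0.05 (0.205%, against 0.655% of all stretches tested), 8 higher in river and 2 higher in lake. They included A, B, C, D, E, F and I. The others, named after their values were seen, lay at 936301, 23016501 and 56237001. The stretch at 936301 to 937700 (1400 bp) was the best covered of the 10, with 46, 16 and 69 counts in the river pools and 19, 19 and 20 in the lake pools. With DESeq2 size factors A, B and C were called (0.0615%, against 0.0345% of all stretches tested), and with every second window A alone was called (0.0243%, against 0.0175%). The trended offset without river pool 12 called 186 members (3.98%, against 24.6%).

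Few windows of these stretches had enough counts to be tested one by one. Of their 33226 windows, 9402 (28.3%) reached 10 summed counts. The edgeR quasi-likelihood test over all 146394 windows called 23 of them at an adjusted p under 0.05 (0.245%, against 1.09% of all windows tested), 21 higher in river (where 0.669% of all windows tested were) and 2 higher in lake (where 0.419% were). The 23 windows lay in 18 members. In 11 of them no lake pool had a count and in 2 no river pool had one. With lake pools 2 and 3 merged no window of a member passed (0.0123% of all windows tested did), and none passed without river pool 10, lake pool 2 or lake pool 3. There were 193 without river pool 12 (21.1% of all windows tested were then called), 30 without river pool 11 (0.507%) and 1 without lake pool 1.

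The window higher in lake with the lowest p started at 41423601, with no river count and 6, 7 and 8 lake counts (edgeR adjusted p of 0.0426). The stretch around it, at 41422901 to 41424200 (1300 bp), had 15, 11 and 16 river counts and 32, 27 and 70 lake counts, with a log2 fold change of -0.81 (SE 0.39, edgeR adjusted p of 0.217). Since no member was called in the stretch test, every called window of a member lay within a stretch that was not called. In contrast, stretches at 18466701, 3579001 and 1185101 had fold changes nearest to 0. The stretch at 1185101 to 1186500 (14 windows) had 6, 4 and 19 river counts and 8, 17 and 21 lake counts, and that at 18466701 had 12, 4 and 12 river counts and 9, 6 and 33 lake counts. In both the pools of the 2 sites overlapped.

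Position within a stretch was examined from its ends. Among the 377 members of 10 or more windows, the outermost window averaged 0.204 CPM in the river and 0.168 CPM in the lake, and the window next to it averaged 0.367 CPM in the river and 0.309 CPM in the lake. Window 3 was lower again, with 0.295 CPM in the river and 0.255 CPM in the lake, and values were 0.278 to 0.290 CPM in the river and 0.242 to 0.251 CPM in the lake in windows 4 and 5. In the 2731 other long stretches of such length, values increased at each step up to window 5, where they were 9.15 CPM in the river and 8.27 CPM in the lake. Both sites showed the same outline. The end of a stretch can be the end of a contig, and contig borders were not used here. The ceiling on T acts on each window alike, and no test of the outline was made.

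**Figure D5:**
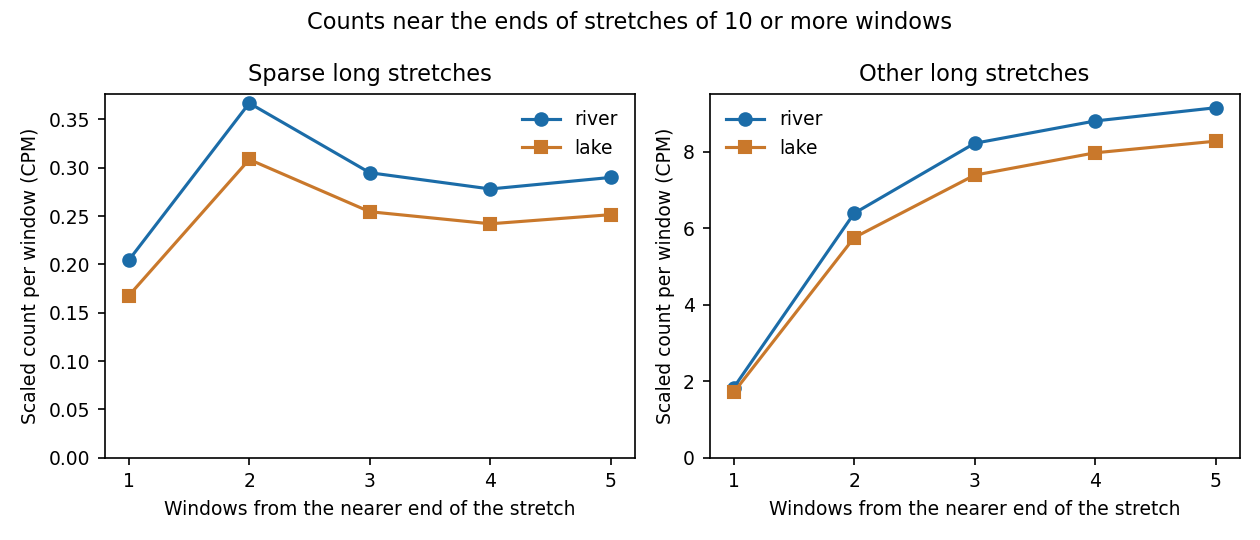
Mean scaled count per window (CPM) by the number of windows from the nearer end, for stretches of 10 or more windows, river in blue and lake in orange. In the 377 sparse long stretches (left) the window next to the outermost is highest, with 0.367 CPM in the river and 0.309 CPM in the lake. In the 2731 other long stretches (right) values rise up to window 5.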

How the data were processed

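MeDIP-Seq of foot tissue DNA was examined in 3 river pools and 3 lake pools. The DNA had been sonicated with a 300 bp program. The authors mapped reads with Bowtie2 to a transcriptome reference and counted them with MEDIPS, and the deposited counts per 100 bp window are not normalised. The deposited RPKM values equal the count times 1 constant per pool, and gave the reads behind each pool (1.47 M to 3.34 M). Site means (a signal column in the deposited table) and the log2 fold change, log2 CPM and p-value columns that the authors deposited from edgeR were not used. Tool versions are not given in the sources used here. Contig names, sequences and CpG counts were not used here.

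Counts were summed per stretch. River over lake was tested in R 4.3.3 by the quasi-likelihood F test of edgeR 4.0.16 (limma 3.58.1 loaded), two-sided and robust, with TMM scaling and no covariate, over all stretches, or all windows, with at least 10 summed counts. Benjamini-Hochberg adjustment ran over all tested, with a threshold of 0.05. DESeq2 1.42.0 was an alternative. Values of 1 number per pool were compared by exact permutation. CPM are counts over TMM-adjusted totals. Standard errors are those implied by the F statistic. Ratio intervals are exact (Clopper-Pearson, 95%) and floors are 3 counts over a site. Both cover counting error only, and since a read can be counted in 2 windows they are too narrow for stretches. Floors also leave out the counting error of the site that had counts. The thinning used a fixed seed.

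The members and all lists were chosen with earlier results of these data known. Stretches named in the text are the 4 with the lowest p in each direction without overlap of CPM, the 6 of highest count with none in 1 site, the 4 longest, the extremes of mean T (3 each) and the 3 fold changes nearest to 0 among members of 8 or more windows, and the holders of the lowest-p window in each direction. A further part of the rule, on stretches with a gene symbol in the study's annotation, named none.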

Additional observations from a re-analysis of the deposited data

How the results depend on the processing

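No paired analysis was possible because no pool number occurs at both sites. The alternatives with every second window, and with the trended offset and river pool 12 left out, were added once the data had been seen. Against 0 members called, there were 3 with DESeq2 size factors, 10 with the abundance-trended offset, 73 without a low-count filter, 162 with the edgeR exact test, 2 with the DESeq2 Wald test, 1 with every second window, and 186 with the trended offset and river pool 12 left out. The DESeq2 Wald test gave no adjusted p to some members, which count as not called. Leaving out 1 pool gave 0 to 217 members called. None was called with library size alone, a minimum of 60 counts, merged lake pools 2 and 3, thinning, the end windows left out, T of 20 or members chosen on scaled counts. The median log2 fold change, 0.12, was -0.037 with library size alone, 0.05 to 0.16 with 1 pool left out, and 0.04 to 0.18 in the other settings. The share without overlap, 16.1%, was 22.99% with lake pools 2 and 3 merged (which makes it easier to reach) and 14.6% with thinning. Against 23 windows called there were 84 with DESeq2 size factors, 8 with library size alone, 121 without a filter, 145 with the edgeR exact test and 0 with lake pools 2 and 3 merged, and 0 to 193 with 1 pool left out. The spread of 46.1% in the river was 26.7% with every second window and 37.1% to 48.1% with 1 pool left out, and the spread of 31.1% in the lake was 15.8% and 28.3% to 31.1%. The difference in the share of counts ran from -0.139 to 0.0618 percentage points with 1 pool left out. The number of members, 5213, was 953 with a gap of 11 windows and 2934 with a minimum of 6 windows. A longer gap can join stretches of neighbouring contigs on the joined sequence. Apart from the settings that change the rule itself, the cause was not tested.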

Other observations

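Sparse long stretches were found along the whole joined sequence. Split into 10 parts of equal length, each part held 271 to 804 of them, or 19.8% to 28.7% of its stretches of 5 or more windows. The highest share was in part 7 (298 of 1037) and the lowest in part 5 (354 of 1792). The long members were gathered at the start, since 74 of the 97 members of 13 or more windows lay in part 1, where the median length was 8 windows against 5 or 6 in the others. River over lake, the median log2 fold change of a part ran from -0.04 (parts 7 and 10) to 0.24 (part 1). It fell from part 1 to part 7, apart from a rise at part 4. From 0.19 in part 8 it fell again up to part 10. Place and length of the members were not separated, and the order was not tested.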
